A study of Mus musculus musculus x Mus musculus castaneus with 12 samples.

Results

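The canonical Wnt pathway and its target genes were followed in mouse embryonic stem (ES) cells with and without the histone demethylase gene *Kdm6a*. The 10 genes *Ctnnb1*, *Tcf7*, *Tcf7l1*, *Lef1*, *Tnik*, *Axin2*, *Nkd1*, *Dkk1*, *Sp5* and *Cdx1* were taken by gene symbol from the 24346 genes of the expression files. All 10 were present in the 12 samples, which were bulk RNA-seq libraries of F1 hybrid ES cells carrying 1 C57BL/6J (BL6) and 1 *Mus castaneus* (*cast*) genome. Male cells of the BL6 x *cast* (BC) cross comprised 2 wild-type (wt) samples and the hemizygous knockout (KO) clones ΔE1, ΔE3 and ΔP4. Male cells of the reciprocal *cast* x BL6 (CB) cross comprised 2 wt samples and the hemizygous clones ΔP2.1, ΔE2.5 and ΔE2.7. The remaining 2 samples were wt cells of a female BC line. All cells were grown in serum with LIF on inactivated feeder fibroblasts, whose share was reduced on gelatin before use. KO clones were picked after puromycin selection, and each is 1 clone and 1 library. ΔE1 and ΔE3 share an off-target deletion and a common origin, and the wt CB line carries an actin-GFP transgene. Libraries held between 49975599 and 89070402 fragments. The CB libraries were the shallower ones, at up to 53407103 fragments against at least 68457338 in BC.

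Canonical Wnt signalling turns on the level of β-catenin, the product of *Ctnnb1*. Without ligand, a destruction complex built on AXIN proteins marks β-catenin for degradation. When Wnt ligands bind Frizzled and LRP receptors the complex is blocked, and β-catenin joins TCF/LEF proteins at target genes, several of which feed back on the pathway. In ES cells the pathway sustains self-renewal largely by relieving repression by TCF7L1, and it also drives mesendoderm genes such as *T* as cells leave pluripotency.

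*Kdm6a* (X:18162575-18279936, plus strand, GRCm38) was cut by 1 of 2 guide pairs, printed here 5′ to 3′ because they define the ΔE and ΔP clones, with the AGG PAM in capitals.
ΔE Left: gaaacctcacgaacccgaaaAGG
ΔE Right: tagcattatctgcataccagAGG
ΔP Left: ggacactgcatgtttgatggAGG
ΔP Right: agctacatactccaaaggagAGG
The ΔE guides lie in exon 2 (X:18163390-18163409) and exon 4 (X:18208733-18208752) and their outer ends are 45363 bp apart. The ΔP guides lie 2028 bases before the transcript start (X:18160528-18160547) and in the intron after exon 2 (X:18164295-18164314), spanning 3787 bp. *Kdm6a* was 49.8 and 51.3 TPM (a level scaled for transcript length and library size) in BC wt, 51.0 and 51.7 TPM in CB wt, and 65.0 and 65.1 TPM in the female line. It was 0.0441 TPM in ΔP4 and 0.0364 TPM in ΔP2.1, and 11.6, 13.5, 2.07 and 7.28 TPM in ΔE1, ΔE3, ΔE2.5 and ΔE2.7. Every KO clone was thus below every wt sample, and the exonic clones kept reads that the promoter clones did not. All 7 ES cell markers, led by *Pou5f1* or *Dppa5a*, were above 1 TPM in all 12 samples.

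Each of the 6 KO clones was set against the wt cells of its own cross. Log2 fold changes of the 10 genes, where tested, ranged from -1.99 (*Sp5*) to 1.12 (*Lef1*), both in ΔE2.5. *Tnik* was the 1 gene of the 10 that was below both wt samples in all 6 clones. *Lef1* was lower in the 3 BC clones and higher in 2 of the 3 CB clones. *Axin2* and *Sp5*, which were many times higher in CB than in BC wt cells, lay far below CB wt in ΔE2.5. *Ctnnb1* stayed within a 1.22-fold range over all 12 samples.

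**Figure D1:**
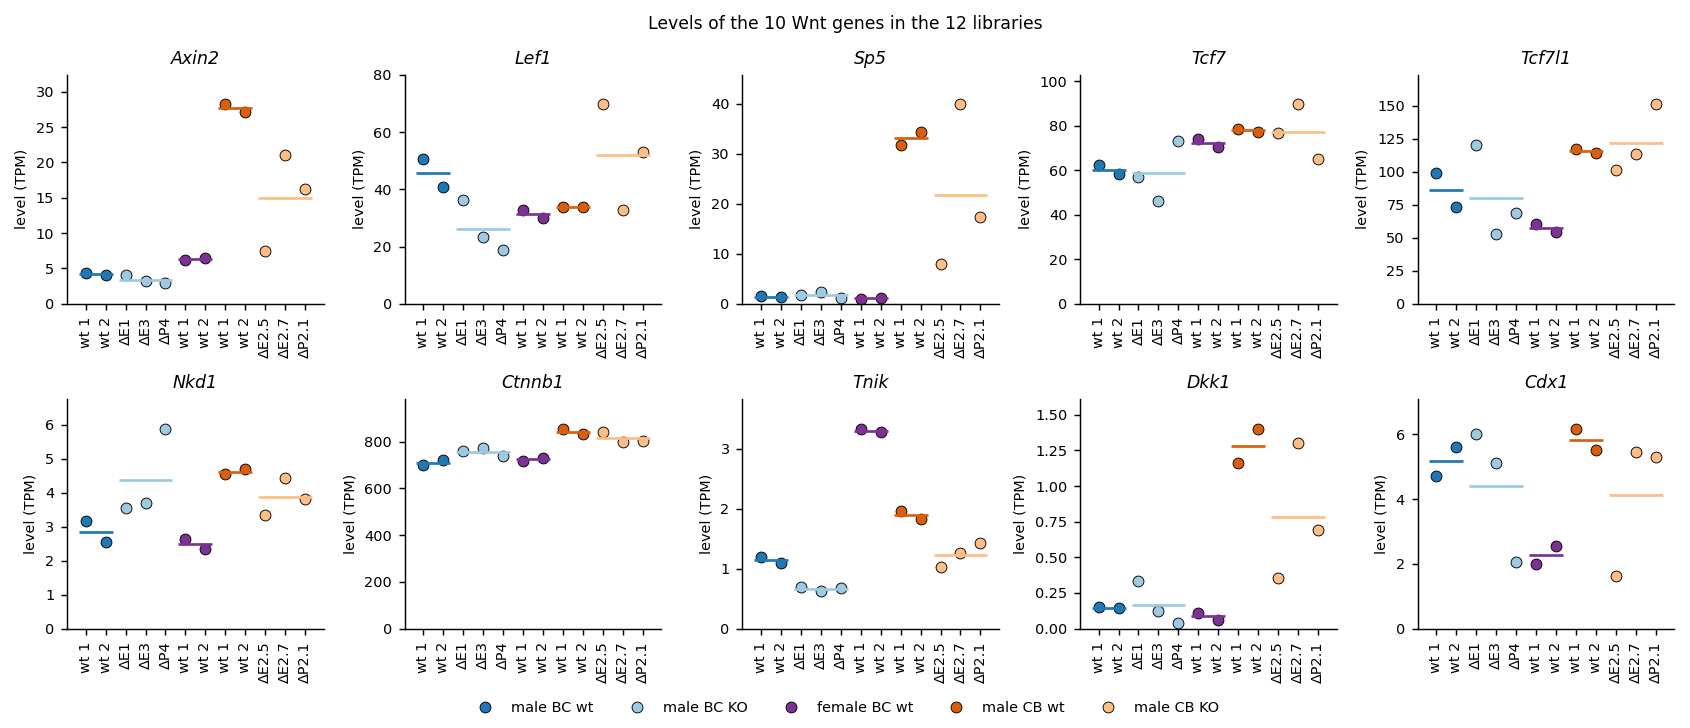
Level of each of the 10 Wnt genes in every sample, in TPM on linear axes that start at 0; points are single libraries, coloured by group, and lines are group means. *Sp5*, *Dkk1* and *Axin2* are separated by cross, *Ctnnb1* lies between 699 and 853 TPM throughout, and the *Tnik* points of the KO clones lie below the wt points of their own cross.

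*Ctnnb1* (9:120929216-120960507) encodes β-catenin and was the most abundant of the 10. It was 699 and 719 TPM in BC wt, 760, 773 and 737 TPM in ΔE1, ΔE3 and ΔP4, 853 and 833 TPM in CB wt, and 842, 796 and 802 TPM in ΔE2.5, ΔE2.7 and ΔP2.1. In TPM all BC clones lay above their wt samples, and 2 of the 3 CB clones below theirs. Fold changes, which are TMM-scaled here and below, did not keep this order: ΔP4 was at -0.04 (SE 0.06), and the log2 fold change of KO against wt was 0.05 (SE 0.10) in BC and 0.03 (SE 0.07) in CB. β-Catenin is regulated as a protein, which these data do not measure.

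Among the DNA-binding partners of β-catenin, *Tcf7* (11:52252371-52283014), mainly an activator in ES cells, was 62.4 and 58.4 TPM in BC wt and 56.9, 46.0 and 73.2 TPM in ΔE1, ΔE3 and ΔP4. In CB it was 78.7 and 77.4 TPM in wt and 77.05, 89.7 and 65.1 TPM in ΔE2.5, ΔE2.7 and ΔP2.1. In both crosses 1 clone lay clearly above and another clearly below the wt samples. *Tcf7l1* (6:72626378-72789254), the main TCF repressor of ES cells, was 99.4 and 73.0 TPM in BC wt and 120, 52.7 and 68.5 TPM in ΔE1, ΔE3 and ΔP4. It was 118 and 114 TPM in CB wt and 101, 114 and 151 TPM in ΔE2.5, ΔE2.7 and ΔP2.1. The 2 BC wt samples themselves were far apart for this gene, so single-clone differences from them are imprecise.

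*Lef1* (3:131110471-131224356) encodes a TCF family member that is also a Wnt target. It was 50.7 and 41.0 TPM in BC wt and 36.3, 23.2 and 18.7 TPM in ΔE1, ΔE3 and ΔP4, so the groups did not overlap. In CB it was 33.7 and 33.7 TPM in wt and 69.7, 32.8 and 53.1 TPM in ΔE2.5, ΔE2.7 and ΔP2.1. ΔE2.7 lay just under the wt samples and the other two CB clones well above them.

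*Tnik* (3:28263214-28675858) encodes a kinase that binds TCF proteins and β-catenin and takes part in the activation of their targets. Its level was low, at 1.19 and 1.10 TPM in BC wt and 0.690, 0.625 and 0.683 TPM in ΔE1, ΔE3 and ΔP4. It was 1.96 and 1.82 TPM in CB wt and 1.02, 1.26 and 1.42 TPM in ΔE2.5, ΔE2.7 and ΔP2.1. In neither cross did a KO clone reach a wt sample. The BC clones were close to each other (0.666 ± 0.0356 TPM, SD, n = 3), but ΔE1 and ΔE3 have a common origin and are not independent.

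The feedback inhibitor *Axin2* (11:108920349-108950783), a scaffold of the destruction complex and a general Wnt target, was 4.39 and 4.06 TPM in BC wt and 4.13, 3.16 and 3.004 TPM in ΔE1, ΔE3 and ΔP4. It was 28.2 and 27.1 TPM in CB wt and 7.45, 21.0 and 16.3 TPM in ΔE2.5, ΔE2.7 and ΔP2.1. All CB clones were below both CB wt samples, whereas ΔE1 lay between the BC wt samples. *Sp5* (2:70474923-70477729), a transcription factor and direct Wnt target, was 1.53 and 1.27 TPM in BC wt and 1.81, 2.38 and 1.14 TPM in ΔE1, ΔE3 and ΔP4. It reached 31.8 and 34.3 TPM in CB wt and 7.91, 39.9 and 17.3 TPM in ΔE2.5, ΔE2.7 and ΔP2.1. Its highest level was 41.4 times its lowest, the widest range among the 10 genes.

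*Nkd1* (8:88521354-88594884), an inducible inhibitor of Dishevelled, was 3.16 and 2.54 TPM in BC wt, 3.56, 3.70 and 5.86 TPM in ΔE1, ΔE3 and ΔP4, 4.53 and 4.68 TPM in CB wt, and 3.33, 4.43 and 3.82 TPM in ΔE2.5, ΔE2.7 and ΔP2.1. In TPM the BC clones were above and the CB clones below their wt samples, but ΔE2.7 was at 0.03 (SE 0.14) as a fitted log2 fold change. The 2 exonic BC clones also had a lower median expression over chromosome 8, where *Nkd1* lies, with a median log2 fold change of -0.49 in ΔE1, -0.53 in ΔE3 and 0.03 in ΔP4. The median BL6 share of fragments over chromosome 8 was 66.8% and 67.1% in BC wt and 67.7% in ΔP4, against 51.1% in ΔE1 and 51.6% in ΔE3, so wt and ΔP4 were the unbalanced ones. The part of this in the *Nkd1* values was not tested. *Dkk1* (19:30545863-30549665), a secreted antagonist of LRP receptors, was nearly silent in BC, with 11 and 11 fragments in wt and 26, 9 and 3 in ΔE1, ΔE3 and ΔP4. It had 53 and 64 fragments (1.16 and 1.40 TPM) in CB wt and 17, 61 and 31 (0.351, 1.30 and 0.691 TPM) in ΔE2.5, ΔE2.7 and ΔP2.1. ΔE2.7 thus resembled CB wt, and the other two CB clones were below it. *Cdx1* (chromosome 18), a homeobox gene induced by Wnt in the posterior embryo, was 4.71 and 5.62 TPM in BC wt and 6.003, 5.12 and 2.06 TPM in ΔE1, ΔE3 and ΔP4. It was 6.16 and 5.52 TPM in CB wt and 1.63, 5.44 and 5.31 TPM in ΔE2.5, ΔE2.7 and ΔP2.1. Only ΔP4 and ΔE2.5 stood apart, both at less than the lowest wt sample of their cross by a wide margin.

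To ask what the loss of *Kdm6a* did in each cross, the 3 KO clones were compared with the 2 wt samples by the quasi-likelihood test of edgeR over all expressed genes. A gene was called at a Benjamini-Hochberg adjusted p under 0.05 and at least a 1.5-fold change. In BC, none of the 9 genes tested was called (*Dkk1* was under the 1 TPM minimum), where 0.029% of all 13805 genes were called. The edited gene *Kdm6a* itself was not called, at a log2 fold change of -2.60 (SE 1.30, edgeR adjusted p = 0.509). A gene not called in these group tests is thus not shown to be unchanged. At an unadjusted p under 0.05, *Tnik* and *Lef1* were lower and no member was higher, beside 4.49% and 6.56% of all genes. The log2 fold change of *Tnik* was -0.82 (SE 0.20, edgeR adjusted p = 0.331) and that of *Lef1* -0.85 (SE 0.28, edgeR adjusted p = 0.379). *Tnik* passed the 1 TPM minimum through wt alone, and with no minimum it was at -0.83 (edgeR adjusted p = 0.317). DESeq2 called *Tnik* (DESeq2 adjusted p = 0.00857) and 1.88% of all genes. In TPM, those with no overlap between KO and wt were *Lef1* and *Tnik* on the lower side, beside 10.9% of all genes, and *Nkd1* and *Ctnnb1* on the higher side, beside 21% of all genes. On TMM-scaled levels *Ctnnb1* overlapped. *Lef1* and *Tnik* stayed apart on the lower side, beside 14.6% of all genes, and *Nkd1* on the higher side, beside 17.5%.

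In CB, edgeR called none of the 10 and 0% of all 13801 genes, and DESeq2 called none of the 10 and 3.63% of all genes. *Kdm6a* was not called here either, at -3.95 (SE 1.25, edgeR adjusted p = 0.190). Of the 10, *Tnik* alone passed an unadjusted p under 0.05, as did 20.5% of all genes, with a log2 fold change of -0.54 (SE 0.18, edgeR adjusted p = 0.200). *Axin2* had -0.81 (SE 0.41), *Lef1* 0.70 (SE 0.30), *Sp5* -0.53 (SE 0.63), *Dkk1* -0.63 (SE 0.54) and *Cdx1* -0.42 (SE 0.51). *Nkd1* was at -0.18 (SE 0.18), *Tcf7l1* at 0.15 (SE 0.17), *Tcf7* at 0.06 (SE 0.15) and *Ctnnb1* at 0.03 (SE 0.07). In TPM, *Axin2*, *Nkd1*, *Tnik* and *Cdx1* were below both wt samples in all 3 clones, beside 32.3% of all genes. The same 4 were so on TMM-scaled levels, beside 28.1% of all genes. As fitted log2 fold changes, however, *Nkd1* and *Cdx1* were at 0.03 and -0.01 in ΔE2.7. No member was above both wt samples in all 3 clones, beside 14.7% of all genes in TPM and 17.4% on TMM-scaled levels.

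Over both crosses together, with cross as a term, edgeR called none of the 10 and 0% of 14298 genes. *Kdm6a* was not called, at -3.30 (SE 1.02, edgeR adjusted p = 0.374). *Tnik* had a log2 fold change of -0.69 (SE 0.14, edgeR adjusted p = 0.191) and *Axin2* one of -0.59 (SE 0.24, edgeR adjusted p = 0.464), and these were the members with an unadjusted p under 0.05, beside 10.1% of all genes. DESeq2 called *Tnik* among the members (DESeq2 adjusted p = 0.000377) and 0.574% of all genes. *Tnik* was below the wt samples of its cross in all 6 clones, as were 2.68% of the 13305 genes tested in both crosses, and no member was above them in all 6, as were 2.62%. The study had already named *Tnik*, from these libraries, among genes lower in KO cells of both crosses, so this is not independent evidence. In BC *Tnik* passed the 1 TPM minimum through wt alone. Its change was -0.59 with the promoter clones alone and -0.74 with the exonic clones alone. Bulk RNA cannot tell fewer cells with *Tnik* from less *Tnik* RNA per cell.

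The KO effect was next compared between crosses by an interaction term. *Lef1* differed by 1.54 on the log2 scale (SE 0.46), being higher in KO cells of CB and lower in KO cells of BC. This did not pass in edgeR (adjusted p = 0.176) and did in DESeq2 (adjusted p = 0.0265). *Nkd1* differed by -0.76 (SE 0.33, edgeR adjusted p = 0.289), and no other member had an unadjusted p under 0.05, beside 16.8% of all genes. Of all 14298 genes, edgeR called 0.0629% and DESeq2 3.87%, and of the members edgeR called none and DESeq2 called *Lef1*.

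Each clone was then set against the wt samples of its cross. With 1 library per clone, the spread came from the 3 pairs of wt replicates and the clone was assumed to vary as they do, so these tests compare libraries. Wt replicates differed much less than clones did: the median chi-square per gene was 2.79, 1.88 and 0.699 between the wt pairs of male BC, female BC and CB, and 7.27 to 18.9 between KO clones of a cross. The p-values of single clones thus do not measure the spread between clones, which the comparisons of KO and wt groups above do. The clones of a cross share their wt samples. In ΔE1, 1 of 9 members was called, where 10.4% of all genes were called. In ΔE3 these were 4 of 9 and 19%, in ΔP4 5 of 9 and 12.9%, in ΔE2.5 6 of 10 and 17.1%, in ΔE2.7 none of 10 and 15.6%, and in ΔP2.1 3 of 10 and 10.1%. *Tnik* in the 3 BC clones and *Dkk1* in ΔE2.5 and ΔP2.1 passed the 1 TPM minimum through wt alone. Of the members above it in both clone and wt, none of 8 was called in ΔE1 and none of 10 in ΔE2.7. In ΔE3 1 was higher and 2 lower of 8, beside 7.49% and 8.89% of all genes above it in both, and in ΔP4 1 and 3 of 8, beside 6.99% and 4%. In ΔE2.5 these were 1 and 4 of 9, beside 5.58% and 9.75%, and in ΔP2.1 1 and 2 of 9, beside 2.9% and 5.91%. In ΔE2.7, 4 of the 10 had an unadjusted edgeR p under 0.05, beside 52.5% of all genes, and DESeq2 called none, beside 12.5%.

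**Figure D2:**
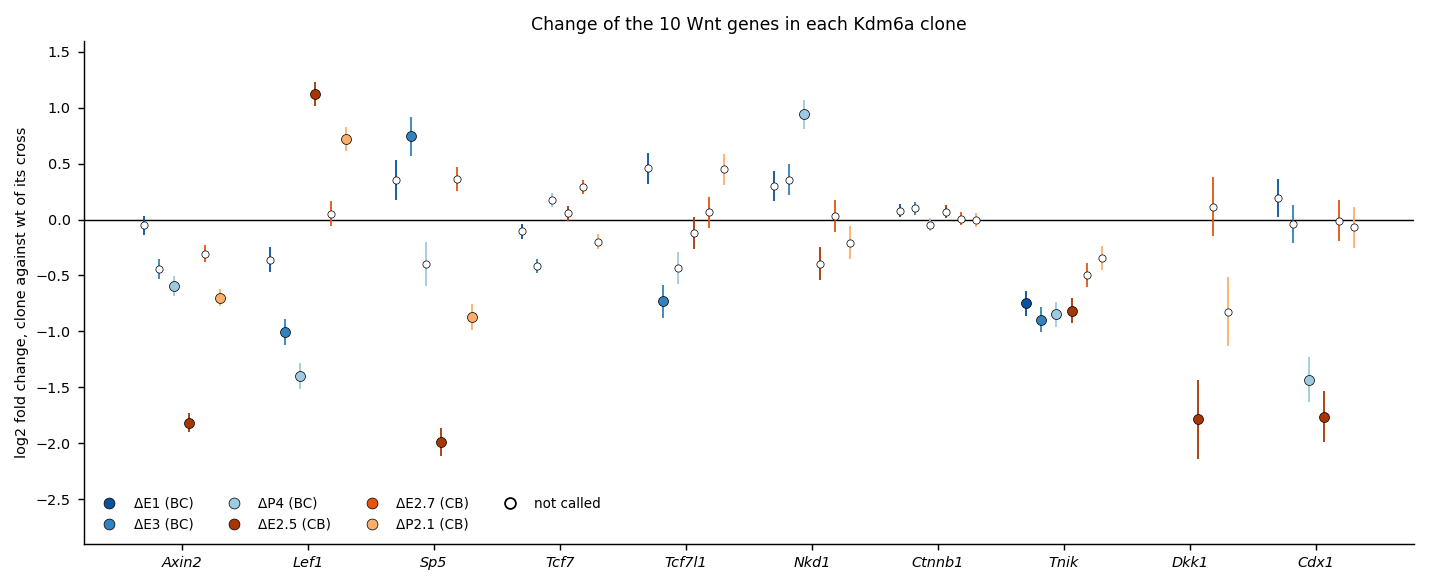
Log2 fold change of each of the 10 Wnt genes in each KO clone against the 2 wt samples of its cross, with the standard error from edgeR; filled points were called. *Tnik* is below 0 in all 6 clones, and *Lef1* lies at -1.40 in ΔP4 and 1.12 in ΔE2.5.

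In the BC clones *Tnik* passed the 1 TPM minimum through wt alone, and in the CB clones it was above it in both clone and wt. Its log2 fold change was -0.75 in ΔE1, -0.90 in ΔE3, -0.85 in ΔP4 and -0.82 in ΔE2.5, with SEs of 0.11. In ΔE2.7 it was -0.50 (SE 0.11, edgeR adjusted p = 0.00541) and in ΔP2.1 -0.35 (SE 0.11, edgeR adjusted p = 0.0334), both short of 1.5-fold. The sign was the same in all 6 clones and the size smallest in ΔP2.1. *Lef1* fell in ΔE3 by 1.00 (SE 0.12) and in ΔP4 by 1.40 (SE 0.12, edgeR adjusted p = 6.48e-05) on the log2 scale. It rose by 1.12 (SE 0.11, edgeR adjusted p = 3.77e-05) in ΔE2.5 and by 0.72 (SE 0.11) in ΔP2.1, and was at 0.05 (SE 0.11) in ΔE2.7 and -0.36 (SE 0.11) in ΔE1. Its direction thus followed the cross in the 4 clones in which it was called.

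The feedback targets *Axin2* and *Sp5* fell together in 2 CB clones. In ΔE2.5 their log2 fold changes were -1.82 (SE 0.09, edgeR adjusted p = 7.68e-07) and -1.99 (SE 0.13, edgeR adjusted p = 4.23e-06), and in ΔP2.1 they were -0.70 (SE 0.08) and -0.87 (SE 0.12). In ΔE2.7 the values were -0.30 (SE 0.08) and 0.36 (SE 0.11), neither called. Both genes are low in BC. There *Axin2* fell by 0.59 in ΔP4 (SE 0.09), a call lost when a wt replicate was left out, where *Sp5* was at -0.40 (SE 0.20) and not called. *Sp5* rose by 0.74 in ΔE3 (SE 0.17), where *Axin2* was at -0.44 (SE 0.09), short of 1.5-fold. *Dkk1* fell by 1.79 in ΔE2.5 (SE 0.35, edgeR adjusted p = 0.00299), from few fragments, passed the minimum through wt alone and did not pass in DESeq2 (adjusted p = 0.0795). *Cdx1* fell in ΔP4 by 1.43 (SE 0.20) and in ΔE2.5 by 1.76 (SE 0.23), and *Nkd1* rose by 0.94 (SE 0.13) in ΔP4, with 0.30 (SE 0.14) in ΔE1 and 0.36 (SE 0.14) in ΔE3, neither called. *Tcf7l1* fell by 0.73 (SE 0.15) in ΔE3, a call that was lost without BC wt replicate 1. *Tcf7* and *Ctnnb1* were called in no clone.

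The gene most spread out over the 6 clones, *Sp5*, was used to look for similar profiles among the 12876 genes tested in all of them. By root mean square difference of the 6 log2 fold changes, the nearest were *Tgfbr3* (0.409), *Hist1h4f* (0.442), *Fam25c* (0.472), *Arhgdib* (0.473) and *Itpka* (0.477). In ΔE2.5 these had log2 fold changes of -1.92, -1.67, -1.39, -1.19 and -1.48. None is on the list of pathway genes used here.

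The largest differences of *Sp5* and *Axin2* lay between the wt cells of the 2 crosses. In CB against male BC wt, *Sp5* was higher by 4.49 on the log2 scale (SE 0.10, edgeR adjusted p = 6.43e-07), *Dkk1* by 3.04 (SE 0.28) and *Axin2* by 2.64 (SE 0.06, edgeR adjusted p = 7.28e-07). *Tnik* was higher by 0.66 (SE 0.08) and *Nkd1* by 0.63 (SE 0.12), the latter not called without BC wt replicate 2. In all, 5 of the 10 were called higher and none lower, where 34.5% of all genes were called, 19.8% higher and 14.7% lower. *Dkk1* was above the 1 TPM minimum in CB wt alone, and of the 9 members above it in both groups 4 were higher. *Lef1* (-0.51, SE 0.09), *Tcf7* (0.30, SE 0.05), *Tcf7l1* (0.36, SE 0.13) and *Ctnnb1* (0.18, SE 0.05) passed the adjusted p but not the fold, and *Cdx1* was at 0.11 (SE 0.13). The values of *Sp5* and *Axin2*, above the minimum in both groups, were thus far from those of the TCF genes and *Ctnnb1*. Cross, cell line and transgene cannot be told apart here.

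**Figure D3:**
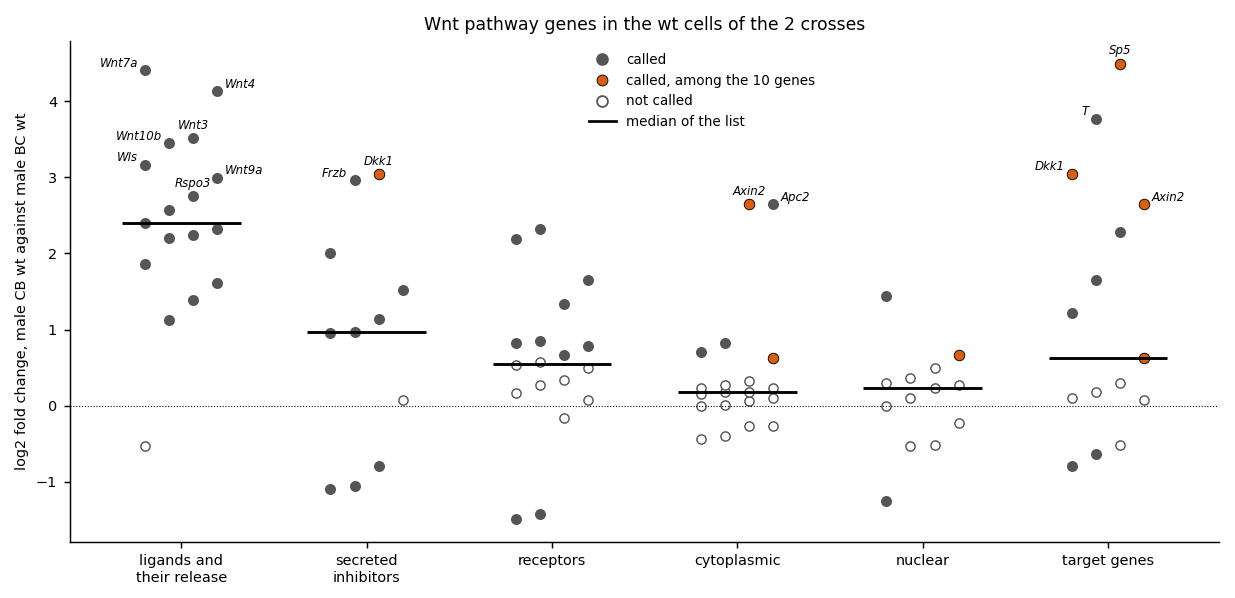
Log2 fold change of Wnt pathway genes between CB wt and male BC wt cells (2 samples each), grouped by role in the pathway; each point is a gene, bars are medians, and genes with 2 roles appear in both lists. All ligand genes but 1 lie above 0 and were called, of which 7 were tested only because CB wt was above 1 TPM, and *Sp5* has the highest value among the targets.

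The other pathway genes were compared between the same wt cells. A list of 100 pathway genes, 90 of them outside the 10, was grouped by role. Genes that passed the 1 TPM minimum through 1 group alone had to differ, so counts are given for those above it in both groups, where 17.4% of all 12798 genes were called higher in CB wt and 13.4% lower. Of 10 such genes for ligands, their release and R-spondins, 9 were higher and none lower, with a median log2 fold change of 2.48 against -0.02 over all these genes. Among them, *Wnt4* (4.13) and *Wnt3* (3.51) encode ligands, and *Wls* (3.16) the carrier that brings them to the cell surface. A further 7 (*Wnt2b*, *Wnt7a*, *Wnt10a*, *Wnt10b*, *Wnt11*, *Wnt16* and *Rspo3*) were above 1 TPM in CB wt alone, and none in BC wt alone. These examples, and those named in the rest of this paragraph and the next, were picked after their values were seen. Of 8 secreted inhibitors, 4 were higher and 3 lower, such as *Sfrp1* (-1.10). Of 16 genes for receptors and their regulators, 6 were higher and 2 lower, *Fzd7* (-1.49) and *Fzd5* (-1.42). Among 19 cytoplasmic components 4 were higher and none lower, and among 13 nuclear components 2 were higher and 1 lower. Of 13 targets, 6 were higher, led after *Sp5* by *T* (3.77), and 2 lower, *Notum* (-0.79) and *Myc* (-0.63). Feeder fibroblast markers also differed: their summed level was 89.1 and 82.5 TPM in CB wt, led by *Col1a1* (56.3 and 52.1 TPM), and 36.4 and 33.9 TPM in BC wt, led by *Thy1*. Without *Col1a1* the sums were 32.8 and 30.3 TPM in CB wt and 27.1 and 26.5 TPM in BC wt, and *Thy1* itself was 14.4 and 12.97 TPM in CB wt and 20.6 and 19.6 TPM in BC wt. Of the 9 markers, 7 were above 1 TPM in each CB wt sample and 4 in each BC wt sample, with none at 0. Mesendoderm markers summed to 185 and 184 TPM in CB wt, led by *T*, and to 24.8 and 25.3 TPM in BC wt, led by *Eomes*. The part of either in the Wnt differences was not tested.

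Ligand genes also separated the CB clones. In ΔE2.5, of 13 ligand and ligand-release genes above 1 TPM in both clone and wt, 9 were called lower and none higher, with a median log2 fold change of -1.28. *Wnt7a* was at -2.86, *Wls* at -2.12, *Wnt4* at -1.73, *Wnt3* at -1.57 and the R-spondin gene *Rspo3* at -1.50. Another 4 passed through wt alone (*Wnt2b*, *Wnt10b*, *Wnt11* and *Wnt16*) and 1 through the clone alone (*Rspo4*). Counted in the same way, 6 were lower and 3 higher of 15 in ΔE2.7, and 3 lower and 1 higher of 16 in ΔP2.1. The median log2 fold change over chromosome 1 was 0.53 in ΔE2.5 and 0.46 in ΔE2.7, and *Wnt6* (1.57) and *Wnt10a* (1.25), 2 of the 3 higher in ΔE2.7, lie there, as do *Fzd5* and *Fzd7*; its part in these values was not tested. ΔE2.5, with the largest fall of *Axin2* and *Sp5*, also had the most ligand genes lower, but the other CB clones did not keep this order. ΔP2.1, where *Axin2* and *Sp5* were called lower, had fewer ligand genes lower than ΔE2.7, where neither was called. A link between them was not tested. In BC, where fewer ligand genes were expressed, 1 was lower and 4 higher of 10 in ΔE1, 3 lower and 2 higher of 8 in ΔE3, and 3 lower and 1 higher of 9 in ΔP4. *Wnt7b* rose by 2.76 in ΔE1. Over all 90 other pathway genes, the counts among those above 1 TPM in both were 5 lower and 6 higher of 63 in ΔE1, 15 and 2 of 62 in ΔE3, 9 and 3 of 62 in ΔP4, 17 and 2 of 70 in ΔE2.5, 13 and 10 of 73 in ΔE2.7, and 8 and 1 of 74 in ΔP2.1. Of all genes above 1 TPM in both, 4.45% were called lower and 4.28% higher in ΔE1, 8.89% and 7.49% in ΔE3, 4% and 6.99% in ΔP4, 9.75% and 5.58% in ΔE2.5, 8.19% and 5.83% in ΔE2.7, and 5.91% and 2.9% in ΔP2.1.

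**Figure D4:**
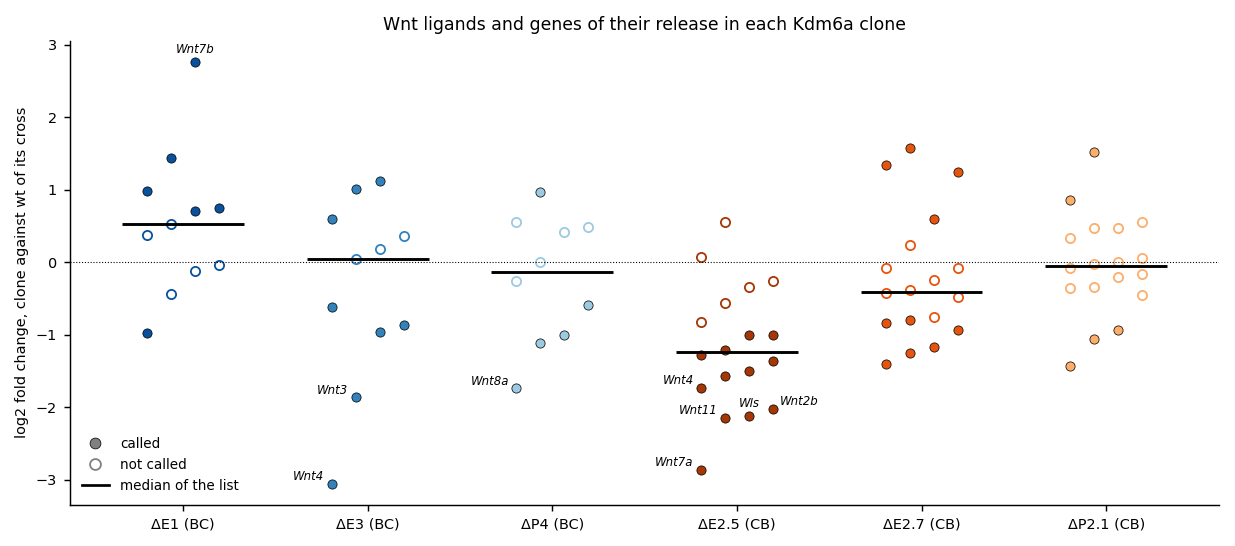
Log2 fold change of the genes for Wnt ligands, their release and R-spondins in each KO clone against the wt samples of its cross; each point is a gene, filled points were called and bars are medians over all genes tested, also those above 1 TPM on 1 side alone. In ΔE2.5 most points lie below 0, with a median of -1.24, against -0.41 in ΔE2.7 and -0.05 in ΔP2.1.

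The mesendoderm gene *T* (Brachyury), a direct Wnt target, had the same sign of change as *Sp5* in each CB clone and in ΔP4, and the opposite sign in ΔE1 and ΔE3. It was 8.66 and 7.89 TPM in BC wt and 5.38, 3.54 and 4.14 TPM in ΔE1, ΔE3 and ΔP4. In CB it was 119 and 117 TPM in wt and 35.2, 196 and 25.98 TPM in ΔE2.5, ΔE2.7 and ΔP2.1. It was called lower in all BC clones, in ΔE2.5 and in ΔP2.1, and higher in ΔE2.7. Mesendoderm markers as a list summed to 58.6, 293 and 46.2 TPM in ΔE2.5, ΔE2.7 and ΔP2.1, led by *T* in each, and to 20.1, 17.3 and 19.99 TPM in the BC clones, with none of the 6 at 0. Feeder markers summed to 27.3, 42.7 and 134 TPM in the CB clones, led by *Thy1*, *Col1a1* and *Col1a1* with 4, 4 and 7 of the 9 above 1 TPM, and to 25.6, 12.7 and 22.0 TPM in the BC clones. Without *Col1a1* the CB sums were 32.8 and 30.3 TPM in wt and 19.8, 22.7 and 31.5 TPM in ΔE2.5, ΔE2.7 and ΔP2.1, so the high sum of ΔP2.1 came from that gene. For feeder markers above 1 TPM in both clone and wt, the median log2 fold change was -2.11, -0.32 and -0.16 in ΔE2.5, ΔE2.7 and ΔP2.1. These medians were over 4, 4 and 7 markers. In ΔE1, ΔE3 and ΔP4 the median was -0.47, -1.45 and -0.85, over 4, 3 and 2 markers. Summed primitive endoderm markers ranged from 16.8 to 38.8 TPM over the 12 samples. The 4 neural markers, none at 0, summed to 7.70 and 8.22 TPM in CB wt, led by *Neurod1*, and to 20.2, 7.23 and 16.95 TPM in ΔE2.5, ΔE2.7 and ΔP2.1, led by *Pax6*. They summed to 23.5 and 21.7 TPM in BC wt, 16.7, 35.7 and 20.3 TPM in ΔE1, ΔE3 and ΔP4, and 6.45 and 6.33 TPM in the female line. Of those above 1 TPM in both groups, 3 of 3 were called higher in ΔE2.5, 1 of 2 in ΔE2.7 and 2 of 2 in ΔP2.1, where 5.58%, 5.83% and 2.9% of all such genes were, and 3 of 3 were lower in CB wt against BC wt, where 13.4% were. The part of these cell types in the results was not tested.

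Pathway genes outside the 10 with an unadjusted p under 0.05 for KO against wt numbered 8 of 70 in BC and 14 of 78 in CB, beside 11% and 20.5% of all genes, and none passed the adjusted p in edgeR. In BC these were 4 lower, *Wnt5b* (-0.98), *T* (-0.97), the receptor gene *Fzd8* (-0.62) and the R-spondin receptor gene *Lgr4* (-0.33), and 4 higher, *Dkk3* (0.75), the Wnt acyltransferase gene *Porcn* (0.70), *Rspo1* (0.58) and *Fzd1* (0.49). In CB 11 were lower and 3 higher, beside 1452 lower and 1380 higher of all 13801 genes. The 1 with the lowest value, the homeobox gene *Cdx4*, was 7.71 and 7.25 TPM in wt and 2.76, 2.19 and 2.73 TPM in ΔE2.5, ΔE2.7 and ΔP2.1, with no overlap. Its log2 fold change was -1.47 (SE 0.18, edgeR adjusted p = 0.11) and DESeq2 called it (DESeq2 adjusted p = 7.9e-07). The inhibitor *Wif1* (-1.18), the ligand *Wnt8a* (-0.88) and the receptor *Fzd1* (-0.80) were also lower, and the Wnt deacylase *Notum* (0.67) higher. Smaller differences were those of *Kremen1* (-0.54), *Fzd2* (-0.40), the co-receptor genes *Lrp5* (-0.32) and *Lrp6* (-0.31), the β-catenin cofactor *Bcl9l* (-0.31), *Ryk* (-0.27) and *Fzd5* (0.52). DESeq2 called 2 of the 70 in BC and 5 of the 78 in CB, beside 1.88% and 3.63% of all genes. The pluripotency genes *Esrrb*, *Nanog*, *Tfcp2l1* and *Klf2*, which TCF7L1 represses, had log2 fold changes of 0.80, 0.80, 0.63 and 0.16 in BC KO and of 0.19, -0.05, 0.15 and 0.78 in CB KO, and none passed the adjusted p in edgeR. DESeq2 called *Esrrb* and *Nanog* higher in BC KO and *Klf2* higher in CB KO, beside 1.88% and 3.63% of all genes. By clone, *Esrrb* (1.17), *Nanog* (1.13) and *Tfcp2l1* (0.96) were called higher in ΔE3, and *Esrrb* (0.68) and *Nanog* (0.69) in ΔP4. So were *Tfcp2l1* (0.69) and *Klf2* (1.22) in ΔE2.7. *Tcf7l1* itself was at 0.46, -0.73 and -0.43 in ΔE1, ΔE3 and ΔP4. In ΔE2.5, ΔE2.7 and ΔP2.1 it was at -0.12, 0.07 and 0.45, and its part in these values was not tested. *Nanog* was called lower in ΔE2.5 (-0.65), and none of the 4 was called in ΔE1 or ΔP2.1.

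Between the wt BC lines of the 2 sexes, 4 of 9 members were called, where 44.5% of all genes were called, so the members did not stand out. Of the 4, 1 was higher and 3 lower in the female line, beside 24.5% and 19.9% of all genes. *Tnik* was 3.33 and 3.28 TPM in the female line, the highest of any sample, and above the male line by 1.47 on the log2 scale (SE 0.09, edgeR adjusted p = 8.48e-08). *Cdx1* (1.99 and 2.55 TPM), *Tcf7l1* (60.8 and 54.5 TPM) and *Lef1* (32.9 and 29.8 TPM) were lower, by -1.26 (SE 0.16), -0.64 (SE 0.12) and -0.60 (SE 0.10). The last 2 calls were lost without male wt replicate 1 or female wt replicate 2. *Axin2*, at 6.26 and 6.51 TPM, was higher by 0.54 (SE 0.09) and short of 1.5-fold, and *Sp5*, at 0.962 and 1.19 TPM, was at -0.45 (SE 0.21, edgeR adjusted p = 0.0683). Sex and cell line cannot be told apart.

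Fragments with a SNP, which can be assigned to the BL6 or *cast* allele, were counted for each member, with shares not adjusted for mapping unless said. Alleles were labelled from the X-linked SNP fragments of male samples, of which 98.8% to 99.3% were BL6 in BC. In male CB samples 9.94% to 11.5% were BL6, and the bearing of this on the CB shares was not tested. *Lef1* had 34.1% and 35.7% BL6 fragments in BC wt, 27.3%, 36.2% and 21.7% in ΔE1, ΔE3 and ΔP4, 38.4% and 34.98% in the female line, 33.2% and 31.6% in CB wt, and 36.6%, 32.1% and 31.0% in ΔE2.5, ΔE2.7 and ΔP2.1. It was thus under 40% in all 12 samples, whichever parent gave the BL6 allele, with 627 to 1428 fragments per sample. Of 9933 autosomal genes with at least 20 such fragments in every sample, 1.9% were under 40% throughout, and the median over these genes was 50.9%. The autosomal ratio of BL6 to *cast* fragments ranged from 0.835 to 1.26 between samples. With shares adjusted for it, *Lef1* was under 40% in 11 samples and at 42.6% in female wt replicate 1, and 2.64% of genes were under 40% throughout. The Wilson 95% interval of ΔP4 (18.6% to 25.1%) and that of ΔE1 (24.7% to 29.99%) lay below that of BC wt replicate 1 (31.7% to 36.6%). These intervals cover counting error alone and not the spread between clones or cultures. Reads also had no molecular identifiers by which duplicates could be removed.

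**Figure D5:**
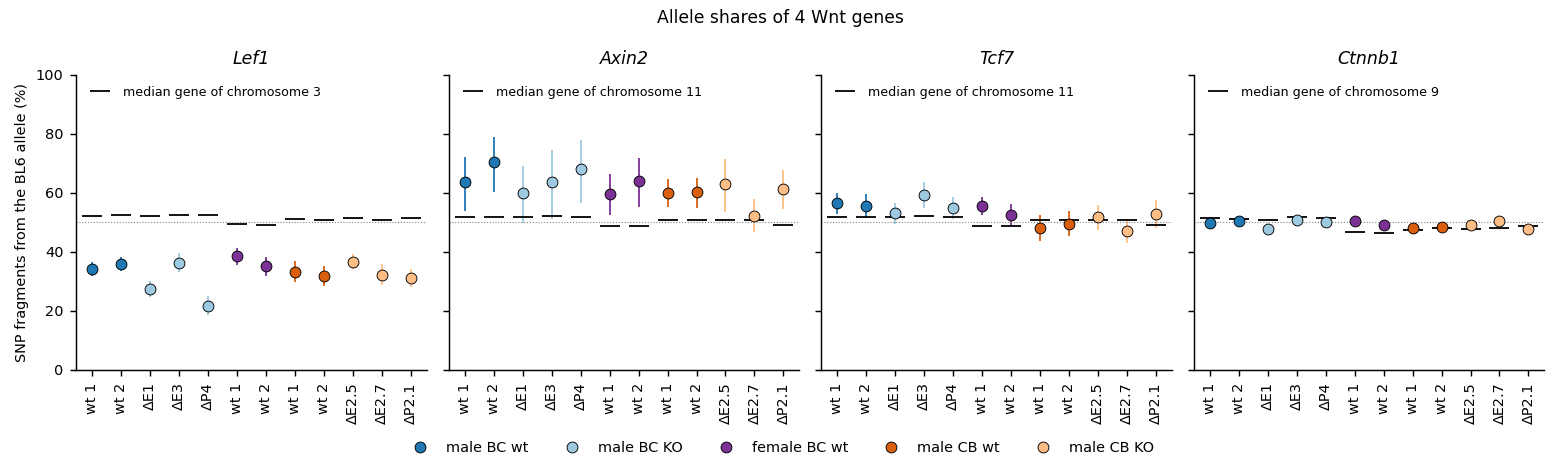
Share of SNP fragments from the BL6 allele in every sample for *Lef1*, *Axin2*, *Tcf7* and *Ctnnb1*, with Wilson 95% intervals; dashes mark the median gene of the same chromosome in that sample. Shares are not adjusted for mapping. *Lef1* lies between 21.7% and 38.4% in all samples, *Ctnnb1* between 47.6% and 50.6%, and *Axin2* above 50%.

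*Axin2* was above 50% BL6 in all 12 samples, from 52.2% in ΔE2.7 to 70.3% in BC wt replicate 2, on 63 to 394 fragments, as were 18.5% of the genes. Adjusted for the ratio above, it was above 50% in 11 samples and at 48.9% in ΔE2.7. Unadjusted, *Ctnnb1* lay between 47.6% and 50.6%, *Tcf7l1* between 48.5% and 55.8%, *Tcf7* between 47.0% and 59.3% and *Tnik* between 40.2% and 59.1%. *Sp5*, *Nkd1*, *Dkk1* and *Cdx1* had fewer than 20 fragments in some sample, so their shares were not compared over all 12 samples. In CB alone, *Sp5* had 49 to 182 fragments per sample and lay between 63.3% and 73.0% unadjusted. When KO and wt were compared on each allele by edgeR, no member tested was called in either cross, where 0.0329% of genes were called on the maternal allele in BC, 0.00897% for the difference between alleles in BC, and 0% in the other tests. *Tnik* and *Dkk1* were not tested by allele in BC, nor were *Sp5* in BC and *Dkk1* in CB on the paternal allele or for the difference, as they missed the 1 TPM minimum there. *Lef1* on the maternal (BL6) allele of BC had a log2 fold change of -1.09 (SE 0.32, edgeR adjusted p = 0.556) and on the paternal allele -0.70 (SE 0.20, edgeR adjusted p = 0.563). In CB it was 0.65 (SE 0.25) on the maternal and 0.73 (SE 0.34) on the paternal allele. The change between alleles differed by 0.41 (SE 0.26, edgeR adjusted p = 0.884) in BC and by 0.07 (SE 0.13) in CB. *Lef1* in 3 of these tests, and *Tnik* on the paternal allele of CB (-0.73, SE 0.27), had an unadjusted p under 0.05, and no member did so in the tests of the difference between alleles. Of all genes, 7.73% and 7.26% had such a p on the maternal and paternal allele in BC, 13.8% and 11.6% in CB, and 4.91% and 3.11% for the difference in BC and CB. Both alleles of *Lef1* therefore had the same sign within a cross.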

How the data were processed

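The authors sequenced the libraries as single-end reads, mapped them with TopHat and Bowtie2 2.2.5 to mm10 and to a pseudo-*cast* genome made by placing *cast* SNPs in it, kept unique high-quality hits, and deposited expected counts per gene for both alleles together and for fragments with a BL6 or *cast* SNP. Here the expected counts were rounded, scaled by TMM and tested with edgeR 4.0.16 (quasi-likelihood, Benjamini-Hochberg adjustment over all genes above 1 TPM in at least 1 sample compared) in R 4.3.3, with DESeq2 1.42.0 as the alternative. TPM was computed from the counts and the length of the longest RefSeq-matched transcript, with the median of 2283.5 bp for 1036 genes without a match. The off-target deletion covers *Pdha1*, *Map3k15* and *Sh3kbp1*, which were left out of the BC group and allele tests, the test over both crosses and the interaction. They were not left out of the tests of single clones or between wt lines, so the shares called in ΔE1 and ΔE3 can include them. Wt replicates are called biological by the study, and p-values measure the spread between these samples. Alternatives were each replicate left out, a 5 TPM minimum, the spread over all 12 samples and a replicate block. Beside the members, up to 12 pathway genes per cross with an unadjusted p under 0.05 and a mean of at least 1 TPM were named, and the 5 genes nearest to the most variable member. The members and lists were chosen with earlier results of these data known. Allele shares were adjusted, where said, by each sample's autosomal BL6 to *cast* ratio. The tests were run on simulated counts with the same spread for every gene and a shift of the same size in each changed sample. The spread between the real clones was not simulated.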

Additional observations from a re-analysis of the deposited data

Results flagged for a closer look

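For 6 Wnt genes the KO effect differed between crosses in DESeq2 but not in edgeR, in the test of the cross by KO difference (CB minus BC, log2). DESeq2 called 3.87% of all genes in this test. *Lef1* differed by 1.54 (edgeR adjusted p = 0.176, DESeq2 adjusted p = 0.0265), and *Notum*, a secreted deacylase of Wnt proteins, by 1.31 (edgeR adjusted p = 0.163, DESeq2 adjusted p = 0.0293). The receptor gene *Fzd1* differed by -1.30 (edgeR adjusted p = 0.112, DESeq2 adjusted p = 0.00235) and the secreted inhibitor *Wif1* by -1.89 (edgeR adjusted p = 0.110, DESeq2 adjusted p = 0.0106). *Dkk3* differed by -1.35 (edgeR adjusted p = 0.154, DESeq2 adjusted p = 0.0309) and *Rspo1*, which enhances Wnt signalling, by -1.04 (edgeR adjusted p = 0.176, DESeq2 adjusted p = 0.0384).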

How the results depend on the processing

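Of 944 fold changes recomputed for members and named genes, 918 kept their direction and their side of the threshold, 16 came to pass it and 10 no longer did, and none reversed. DESeq2 called 1 member in BC, 1 over both crosses and 1 for the interaction, and 2, 5, 2 and 5 other pathway genes in BC, in CB, over both crosses and for the interaction, where edgeR called none. Over all genes edgeR called 4 in BC, 0 in CB, 0 over both crosses and 9 for the interaction, and DESeq2 260, 501, 82 and 554. With the spread taken over all 12 samples, 54 genes were called in BC, and 1 other pathway gene, *Cdx4*, in CB. Above 5 TPM fewer genes were tested: 2 members and 20 other pathway genes were called between the sexes, 2 members between the wt cells of the crosses, 0 and 6 in ΔE1, 2 and 11 in ΔE3, 3 and 8 in ΔP4, and 14 and 6 other pathway genes in ΔE2.7 and ΔP2.1. With each replicate left out, 0 to 6 other pathway genes were called in CB and 0 to 3 for the interaction, the highest in both without ΔP2.1. Members called ranged from 2 to 4 between the sexes and from 1 to 2 in ΔE1. *Tnik* ranged from -0.87 to -0.78 in BC and from -0.65 to -0.42 in CB. With the replicate number as a block, 4 members were called between the sexes and 5 between the wt cells of the crosses, as without it. Counts above 5 TPM, with replicates left out and with the block are given without the share of all genes called there. They show only how the calls moved. Same-numbered wt samples deviated together only weakly (correlation 0.237, 0.0982 and 0.0182 over 14671 genes) and share a number only. Restricting the clones to promoter or exonic ones, adjusting allele shares, comparing overlap on TMM-scaled levels, counting only genes above 1 TPM in both groups and summing feeder markers without *Col1a1* were chosen after the data were seen. Among all ligand genes tested, also those above 1 TPM on 1 side alone, 16 of 17 were higher in CB wt than in BC wt. Of all genes 19.8% were. The 18 tested in ΔE2.5 had a median log2 fold change of -1.24. In these comparisons 7 and 4 of the ligand genes were above 1 TPM in CB wt alone. Levels depend on the length used: with the union of exons *Lef1* was 0.586 times and *Sp5* 1.47 times the value given. The limits are 1 library per clone, 2 wt samples per group, a common origin of ΔE1 and ΔE3, and few fragments of *Dkk1*, *Tnik* and BC *Sp5*.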
